A study of Mus musculus with 6 samples.

Results

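A set of 5 microRNAs (miRNAs) of red blood cells, out of the 2334 small RNAs counted in this series (1836 of them miRNAs), was followed by name through laser-injured and uninjured mouse eyes as a measure of the blood in each tissue pool. They are mmu-miR-451a, the 2 arms of the miR-144 precursor (mmu-miR-144-3p and mmu-miR-144-5p), mmu-miR-486a-5p and mmu-miR-486b-5p, where mmu stands for mouse and is mostly left out from here on. The counts of miR-486a-5p and miR-486b-5p were identical in all 6 libraries, so the 5 names carried 4 sets of counts. All 5 passed the filter on low counts (edgeR's filterByExpr with a minimum count of 10). Small RNAs had been sequenced from the RPE-choroid-sclera complex, which is the retinal pigment epithelium (RPE), the vascular choroid and the sclera, of male mice 7 to 8 weeks old. In the CNV (choroidal neovascularization) group each eye had received 25 laser burns (532 nm, 100 mW, 0.1 s, 50 µm) and was removed 7 days later; control eyes were from unlasered mice of the same age. There were 3 libraries per group, each made from 4 pooled eyes. The labels give no strain, do not say whether the eyes were cleared of blood by perfusion, and do not tie pools to mice. The p-values therefore measure only how these pools vary, which may be technical in part.

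Red cells lose their nucleus but keep a stock of mature miRNAs made while they were precursors. The most abundant of these is miR-451a, which is transcribed together with miR-144 from an erythroid gene controlled by the transcription factor GATA1. Its short hairpin is not cut by Dicer but sliced by Argonaute 2, so that the mature strand runs around the loop, whereas miR-144 is cut by Dicer into 2 arms. The miR-486 precursor lies in the gene for ankyrin 1, a red cell membrane protein that muscle also makes, and is known from both red cells and muscle. In serum and plasma the ratio of miR-451a to miR-23a-3p, a miRNA little affected by haemolysis, is a common index of haemolysis.

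The mature sequences were found for 3 of the 5 members in RefSeq (build GRCm38.p6) and are shown because all 3 come from one short stretch of chromosome 11. Capitals mark the seed, bases 2 to 8, which pairs with target mRNAs.

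miR-451a (chr11:78073186-78073207, plus strand): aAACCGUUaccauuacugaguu

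miR-144-5p (chr11:78073010-78073032, plus strand): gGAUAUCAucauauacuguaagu

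miR-144-3p (chr11:78073047-78073066, plus strand): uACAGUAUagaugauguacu

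miR-101a-3p (chr4:101346957-101346977, minus strand): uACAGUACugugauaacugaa

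No other mature miRNA of the 1679 in that table had the seed of miR-451a, miR-144-5p or miR-144-3p. Bases 2 to 7 of miR-144-3p recurred in 1 other, miR-101a-3p, shown for comparison. The tissue held far more of miR-101a-3p, at 7945 to 10693 CPM per library (a level: the count relative to the library total scaled by TMM, the trimmed mean of M-values), than of miR-144-3p, at 5.50 to 35.4 CPM. The hairpins are shown next with their mature strands in capitals, since they differ in how many products they yield.

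Mir451a (chr11:78073170-78073241, plus strand, 72 bases): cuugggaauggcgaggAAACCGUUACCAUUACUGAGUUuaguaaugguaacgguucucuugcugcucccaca

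Mir144 (chr11:78073005-78073070, plus strand, 66 bases): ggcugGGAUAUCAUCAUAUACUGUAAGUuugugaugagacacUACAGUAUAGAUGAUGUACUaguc

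The mature strand of miR-451a occupied bases 17 to 38 of its hairpin. In the GENCODE M21 annotation of GRCm38 the hairpins of Mir144 and Mir451a lay 99 bases apart on the plus strand, and the annotation gave neither a host gene. The gene of miR-451b is annotated over the same bases as Mir451a on the minus strand; it had 0 to 2 counts per library, and the counts of 0 in control replicates 1 and 3 allow up to 0.518 and 0.613 CPM (3 counts). The miR-486a gene, named Mir486, lay on chromosome 8 at 23142555 to 23142682 on the plus strand within an intron of Ank1. The miR-486b gene, named Mir3107, lay inside it on the minus strand at 23142573 to 23142662, and the tables give both names the same counts.

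The libraries held 5057142 to 12839386 counts, the most in control replicate 2. The RPE miRNAs miR-204-5p and miR-211-5p stood at 3201 to 5092 and 1321 to 1932 CPM per library. Markers of neighbouring tissue were also present in each pool: 3 photoreceptor miRNAs took 2.61% to 8.99% of miRNA counts and 4 skeletal muscle miRNAs 4.13% to 9.40%.

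Between pools of the same group miR-451a and both arms of miR-144 varied widely, and miR-486a-5p less. The level of mmu-miR-451a was 1461, 1259 and 599 CPM in control replicates 1 to 3 and 2935, 2302 and 449 CPM in CNV replicates 1 to 3. The lowest pool of the series and the 2 highest were thus all CNV pools, and the groups overlapped. The highest pool exceeded the lowest 6.54-fold. By raw count miR-451a ranked 56th among all small RNAs in CNV replicates 1 and 2 and 123rd in CNV replicate 3. In a tissue pool, fewer red cells and less miRNA per cell cannot be told apart.

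Both arms of miR-144 showed nearly the same order of pools at a far lower level. The level of mmu-miR-144-5p was 69.3, 65.3 and 26.7 CPM in the control pools, against 124, 75.4 and 23.7 CPM in the CNV pools. That of mmu-miR-144-3p was 21.4, 25.6 and 10.2 CPM in the control pools, against 35.4, 29.7 and 5.50 CPM in the CNV pools. For both arms CNV replicates 1 and 2 exceeded each control pool, and CNV replicate 3 was below each of them. The rarest value, miR-144-3p in CNV replicate 3, rested on 32 counts, for which the exact Poisson interval is 3.76 to 7.77 CPM. Poisson intervals cover counting error only.

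The level of mmu-miR-486a-5p, and with it mmu-miR-486b-5p, varied less. It was 589, 823 and 701 CPM in the control pools, against 1195, 904 and 500 CPM in the CNV pools. Here too CNV replicates 1 and 2 stood over, and CNV replicate 3 under, each control pool, but control replicate 3 was not the lowest control pool, as it was for miR-451a and both miR-144 arms. The highest pool exceeded the lowest 2.39-fold over the series, and 1.40-fold among the control pools.

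**Figure D1:**
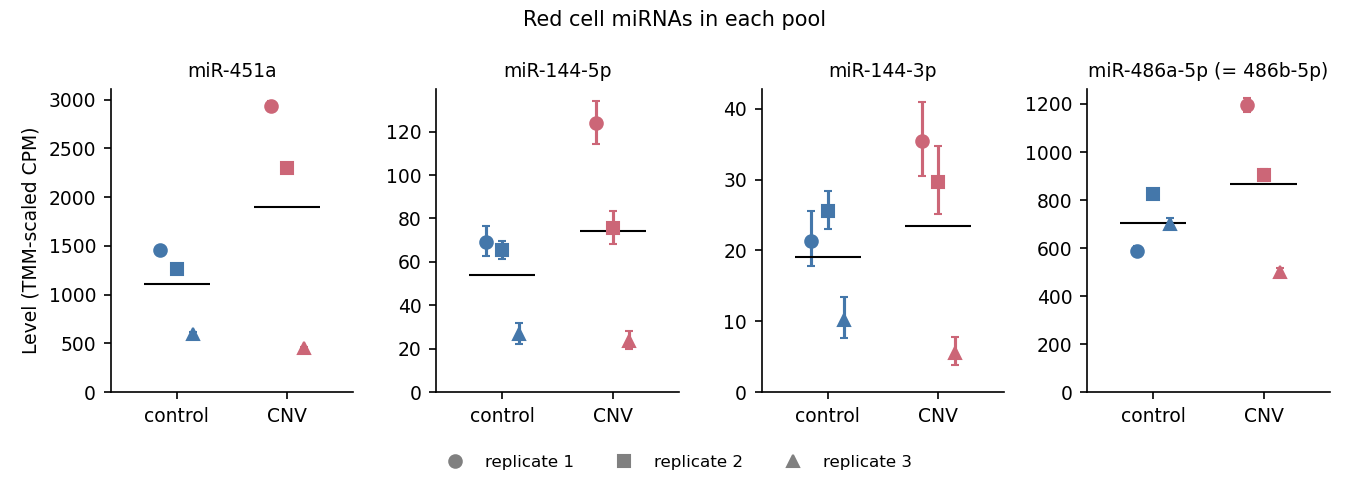
Level of each red cell miRNA in the 3 control and 3 CNV pools (TMM-scaled CPM, linear axes from 0); marker shapes give the replicate number, horizontal lines the group mean, and error bars the 95% exact Poisson interval of the count. In each panel CNV replicates 1 and 2 lie above all control pools and CNV replicate 3 below them, and miR-486a-5p spans a narrower range (2.39-fold) than miR-451a (6.54-fold).

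Whether CNV tissue held more of these miRNAs than control tissue was asked with edgeR's quasi-likelihood test over all 997 small RNAs that passed the filter. At an adjusted p threshold of 0.05 none of the 5 members was called, and 3 small RNAs were called in all, 0.301% of those tested. All 5 members had a positive fold change under TMM, where 51.2% of the 541 tested miRNAs did. The 5 were positive also with relative log expression (RLE) factors and with total counts as the scaling. Their median log2 fold change was 0.30, with miR-486 entering under both names, against 0.01 over the tested miRNAs. Between groups, miR-451a went from 1107 ± 451 to 1895 ± 1292 CPM (SD, n = 3), a log2 fold change of 0.78 (SE 0.59, 95% interval -0.56 to 2.11, edgeR adjusted p 0.568). That interval reaches from a lower level in CNV to more than a 4-fold higher one.

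The miR-144 arms gave smaller differences. For miR-144-5p the group levels were 53.8 ± 23.5 and 74.4 ± 50.1 CPM (SD, n = 3; log2 fold change 0.46, SE 0.54, edgeR adjusted p 0.719). For miR-144-3p they were 19.1 ± 7.95 and 23.5 ± 15.9 CPM (SD, n = 3; log2 0.28, SE 0.58, edgeR adjusted p 0.869). For miR-486a-5p they were 704 ± 117 and 866 ± 349 CPM (SD, n = 3; log2 0.30, SE 0.29, 95% interval -0.37 to 0.96, edgeR adjusted p 0.664).

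At an unadjusted p under 0.05 edgeR also gave 0 of the 5 members, against 95 of the 541 tested miRNAs (17.6%). DESeq2 called 0 of the 5 and 4.62% of all small RNAs with an adjusted p, and limma-voom 0 of the 5 and 0.301%. For 24.0% of the tested miRNAs the CNV and control pools did not overlap, and for none of the members. The result leaned on single libraries. Without CNV replicate 3 the log2 fold change of miR-451a was 1.15 (edgeR adjusted p 0.111, unadjusted 0.0107) and that of miR-486a-5p 0.49 (adjusted p 0.170). Without CNV replicate 1 that of miR-451a was 0.31, and those of miR-144-5p, miR-144-3p and miR-486a-5p were negative at -0.13, -0.15 and -0.012. Without control replicate 3 miR-451a was at 0.42 and miR-144-3p at -0.064. When no filter on low counts was applied, edgeR called miR-451a higher in CNV (log2 0.67, adjusted p 0.0242), among 88 small RNAs called in all (3.77%).

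The spread between pools exceeded counting error. For miR-451a the coefficient of variation between pools was 40.8% in control and 68.2% in CNV, while the counting error of its least-read library in each group was 1.85% and 1.96%. For miR-144-3p, the least counted member, the spread was 41.7% and 67.5% and the largest counting error 14.1% and 17.7%. On the log2 scale the SD of miR-451a within groups, pooled over both, was 1.15, the second highest of the 541 tested miRNAs. The SD of miR-144-3p was 1.13 (the 4th highest) and that of miR-144-5p 1.02 (the 9th). The median over the tested miRNAs was 0.26. With 0.48, miR-486a-5p ranked 76th. The SDs were larger in CNV, where replicate 3 was far below the other pools. For miR-451a the SD was 0.69 in control and 1.47 in CNV, and for miR-144-3p 0.69 and 1.45. It was 0.76 and 1.22 for miR-144-5p and 0.24 and 0.64 for miR-486a-5p. The medians over the tested miRNAs were 0.24 and 0.23. The haemolysis reference miR-23a-3p stayed between 3702 and 4210 CPM in the same 6 libraries.

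**Figure D2:**
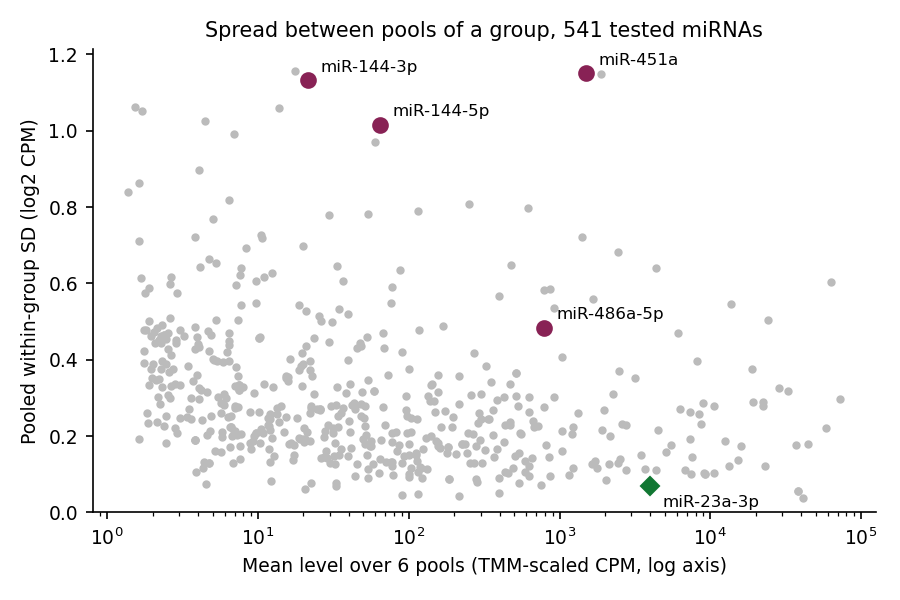
Within-group SD of log2 CPM, pooled over control and CNV, against the mean level over the 6 pools (log axis) for the 541 tested miRNAs (grey), with the red cell miRNAs in purple and miR-23a-3p as a green diamond. The points of miR-451a, miR-144-3p and miR-144-5p lie at SDs of 1.02 to 1.15, miR-486a-5p at 0.48, and the median miRNA at 0.26.

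The arms of miR-144 followed miR-451a from pool to pool. Over the 6 libraries the log2 level of miR-144-5p had a Pearson r of 0.98 and a Spearman rho of 1 with miR-451a (exact permutation p 0.00139 and 0.00278, adjusted over 3 relations 0.00417 and 0.00833). For miR-144-3p r was 0.96 and rho 0.94 (exact permutation p 0.00278 and 0.0167, adjusted 0.00417 and 0.025). For miR-486a-5p r was 0.82 and rho 0.83, which missed the threshold (exact permutation p 0.0528 and 0.0583, the same after adjustment). Both values of a pair come from one library and share its scaling. Without CNV replicate 3 and control replicate 3, the libraries farthest from the median of miR-451a, r over the other 4 was 0.87, 0.87 and 0.78.

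The slope was shallowest for miR-486a-5p, a difference that was not tested. Per log2 unit of miR-451a, miR-144-3p changed by 0.92, miR-144-5p by 0.85 and miR-486a-5p by 0.35 log2 units. Within groups, after each library was set against its group mean, r was 0.99 for miR-144-3p, 0.98 for miR-144-5p and 0.80 for miR-486a-5p.

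**Figure D3:**
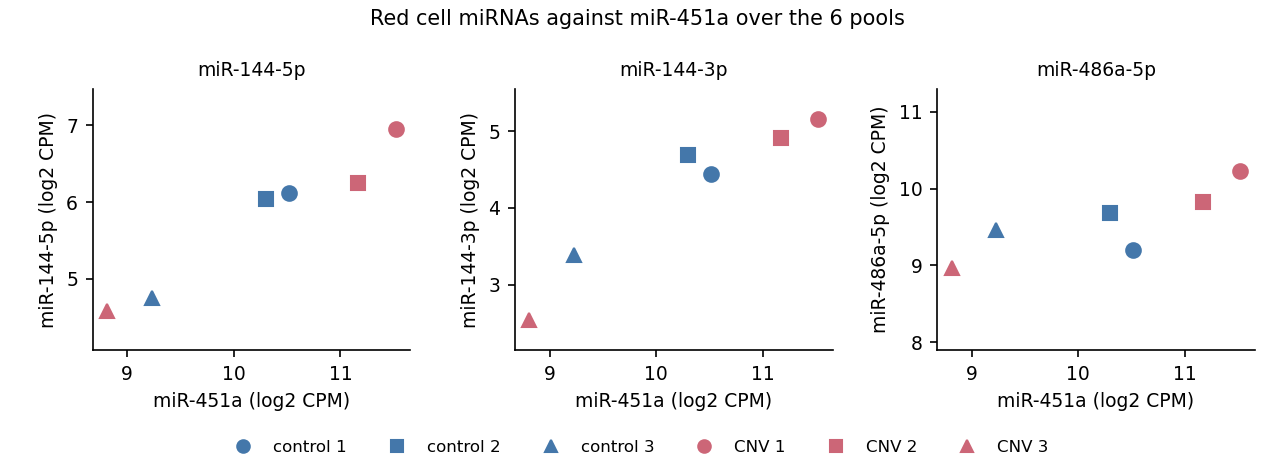
Log2 CPM of miR-144-5p, miR-144-3p and miR-486a-5p (vertical axes of equal length in log2 units) against log2 CPM of miR-451a in the 3 control (blue) and 3 CNV (red) pools. The 2 arms of miR-144 climb nearly as steeply as miR-451a (slopes 0.85 and 0.92), and miR-486a-5p less (0.35).

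Ratios of counts within a library need no scaling factor. Of 6 such ratios compared between the groups, none passed. With 3 pools against 3 the exact permutation p cannot be under 0.1. Only the ratio of miR-451a to miR-144-3p was at that limit, and the exact permutation p of the others was 0.4 to 0.9. The haemolysis ratio, miR-451a to miR-23a-3p, was 0.347, 0.340 and 0.147 in the control pools, against 0.727, 0.581 and 0.112 in the CNV pools. It repeated the order of miR-451a itself, with CNV replicates 1 and 2 highest and CNV replicate 3 lowest. The mean log2 ratio was 0.48 higher in CNV (two-sided exact permutation p = 0.6, adjusted over 6 ratios 0.72), and -0.019 without CNV replicate 1, 0.075 without control replicate 3, 0.14 without CNV replicate 2 and 1.33 without CNV replicate 3.

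Per read of miR-144-3p there were 68.3, 49.2 and 58.7 reads of its cluster partner miR-451a in the control pools, against 82.9, 77.6 and 81.6 in the CNV pools. Each CNV pool exceeded each control pool, and the mean log2 ratio was 0.47 higher (exact permutation p = 0.1, the smallest this design allows, adjusted 0.6). The exact counting intervals in control replicates 1 to 3 were 57.2 to 82.2, 44.3 to 54.8 and 44.4 to 79.2. In CNV replicates 1 to 3 they were 71.6 to 96.5, 66.0 to 91.9 and 57.6 to 119, so that of control replicate 2 lay below all CNV intervals and those of control replicates 1 and 3 overlapped them. Against the other arm, a comparison added after the values were seen, the groups overlapped, with 21.1, 19.3 and 22.4 reads of miR-451a per read of miR-144-5p in control and 23.7, 30.5 and 18.9 in CNV.

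Of the 2 arms of miR-144, the 5p arm had more reads in 6 of 6 libraries. It held 76.4%, 71.8% and 72.4% of the reads of both arms in the control pools, against 77.8%, 71.8% and 81.2% in the CNV pools. The Wilson 95% interval was widest in control replicate 3, at 65.4% to 78.4%. The log2 ratio of miR-144-3p to miR-144-5p was -1.47 ± 0.19 in control and -1.75 ± 0.38 in CNV (SD, n = 3; exact permutation p = 0.4, adjusted 0.72). In the miR-486 precursor nearly all reads were of the 5p arm, 98.1% to 99.2% per library, and the 3p arm, also with identical counts for miR-486a-3p and miR-486b-3p, had 36 to 189 counts.

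The balance between miR-451a and miR-486a-5p differed between pools of one group. There were 2.48, 1.53 and 0.854 reads of miR-451a per read of miR-486a-5p in the control pools, against 2.46, 2.55 and 0.897 in the CNV pools. In replicate 3 of each group miR-486a-5p was thus the more abundant of the 2, and in the other 4 libraries miR-451a was. The group means differed by 0.26 log2 units (exact permutation p = 0.6, adjusted 0.72), -0.13 without control replicate 3, 0.0038 without CNV replicate 2, 0.030 without CNV replicate 1, 0.64 without control replicate 1 and 0.76 without CNV replicate 3. Because miR-486 is also a muscle miRNA, the skeletal muscle list is given beside it. None of its 4 members was at 0 in any library, and their summed share was 4.13%, 9.32% and 9.40% of miRNA counts in the control pools, against 8.91%, 8.04% and 6.39% in the CNV pools. Over the CNV pools this share had the order of miR-486a-5p. Over the control pools both were lowest in replicate 1, but the share was highest in replicate 3 and miR-486a-5p in replicate 2. Of the 4 members, miR-133a-3p and miR-133b-3p ordered the pools as miR-486a-5p did in both groups, miR-1a-3p did so in CNV but not in control, and miR-206-3p in control but not in CNV. In CNV replicates 1 to 3 miR-206-3p was at 1869, 1721 and 2454 CPM, highest where miR-486a-5p was lowest. The part of muscle in the miR-486a-5p level was not tested.

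**Figure D4:**
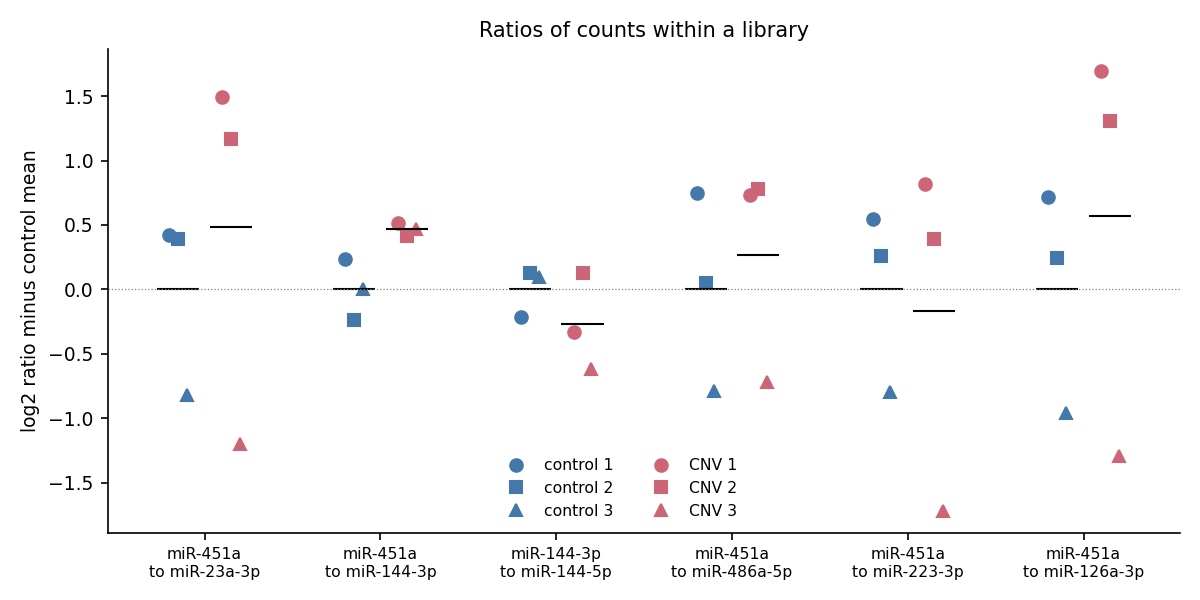
The 6 log2 ratios of counts within a library, each set against its control mean (dotted line), in the control (blue) and CNV (red) pools; marker shapes give the replicate number and short lines the group means. In every ratio of miR-451a to a miRNA from outside its cluster, replicate 3 is the lowest pool of each group. In the ratio of miR-451a to miR-144-3p the CNV pools lie together above the control pools.

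Leukocyte miRNAs are given beside the members because blood brings both cell types. The myeloid miR-223-3p was at 75.6, 79.4 and 78.6 CPM in the control pools, against 126, 132 and 111 CPM in the CNV pools, so each CNV pool exceeded each control pool. CNV replicate 3, which had the least miR-451a of all pools, was among them. Groups without overlap, in either direction, were found for 24.0% of the 541 tested miRNAs. The ratio of miR-451a to miR-223-3p was 19.3, 15.8 and 7.61 in control and 23.3, 17.4 and 4.03 in CNV. Its group means differed by -0.17 log2 units (exact permutation p = 0.9, adjusted 0.9), -0.66 without CNV replicate 1, -0.45 without CNV replicate 2, -0.57 without control replicate 3, -0.041 without control replicate 2, 0.10 without control replicate 1 and 0.61 without CNV replicate 3. At an unadjusted p under 0.05 edgeR gave 6 of the 8 leukocyte miRNAs, in either direction, against 17.6% of the 541 tested miRNAs. After adjustment it called 0 of them. The fold change was positive for 7 of the 8 leukocyte miRNAs (median log2 0.61). The exception, miR-150-5p of mature lymphocytes, was singled out after its values were seen (log2 -0.48). The hematopoietic miR-142a-5p was at 169 to 233 CPM in control and at 538, 496 and 292 CPM in the CNV pools, so CNV replicate 3 was the lowest CNV pool here too, though above each control pool. The other arm, miR-142a-3p, was nearly level over the CNV pools, at 75.9, 71.3 and 70.3 CPM. In control miR-142a-3p was at 32.9 to 46.8 CPM.

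The endothelial miR-126a-3p varied less, at 32871, 39180 and 43016 CPM in the control pools, against 33467, 34373 and 40687 CPM in the CNV pools. In both groups it rose from replicate 1 to replicate 3 while miR-451a fell (Pearson r -0.85 over the 6 libraries, a description). The other arm, miR-126a-5p, did not follow that order. It was at 2375, 2667 and 2053 CPM in the control pools, against 1981, 1649 and 2194 CPM in the CNV pools (r -0.33). The ratio of miR-451a to miR-126a-3p ran from 0.0110 in CNV replicate 3 to 0.0877 in CNV replicate 1. That range, 7.95-fold, was wider than the 6.54-fold of miR-451a itself, since the 2 levels moved in opposite directions. The log2 group means of the ratio had a difference of 0.57 (exact permutation p = 0.6, adjusted 0.72). That difference was 0.0042 without CNV replicate 1 and 1.50 without CNV replicate 3.

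A list of 12 miRNAs that red cells hold but other cells make as well showed little of the members' spread. Of the 12, 9 had a positive and 3 a negative fold change, where 51.2% of the 541 tested miRNAs were positive. EdgeR called 0 of the 12, and their median log2 fold change was 0.07. Before adjustment, miR-15b-5p (log2 0.52) and miR-20b-5p (log2 -0.49) had an edgeR p below 0.05, which makes 2 of the 12. The same held for 95 of the 541 tested miRNAs (17.6%), so the list did not stand out by this count. The split of signs was 7 to 5 with RLE factors and 5 to 7 when libraries were scaled by total counts alone. The level of miR-16-5p, a miRNA of most cell types that red cells also carry, ran from 1588 to 1851 CPM over the control pools and from 1634 to 1899 CPM over the CNV pools. That of miR-92a-3p, from the miR-17-92 cluster, ran from 894 to 1085 CPM and from 935 to 1331 CPM, with the highest value in CNV replicate 1, as for miR-451a. For miR-25-3p it was 995 to 1187 CPM and 1182 to 1274 CPM. None of these spanned even the 2.39-fold range of miR-486a-5p. The order of the pools was shared by part of the list. In each group miR-106b-5p, miR-15b-5p and miR-93-5p ordered the pools as miR-451a did, and the others did not. The widest range of the list was that of miR-15b-5p, 65.3 to 126 CPM. Pearson r with miR-451a ran from -0.88 (miR-363-3p) to 0.88 (miR-106b-5p) over the 12.

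The photoreceptor list did not share the pattern of the red cell miRNAs. Its 3 members, miR-182-5p, miR-183-5p and miR-96-5p, were at 0 in no library and took 8.99%, 5.61% and 7.52% of miRNA counts in the control pools, against 3.33%, 2.61% and 5.44% in the CNV pools. CNV replicate 3, with the least miR-451a, had the largest share among the CNV pools, while in control the replicate with the least miR-451a was not the one with the largest share. The part of photoreceptor RNA in the members' levels was not tested.

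**Figure D5:**
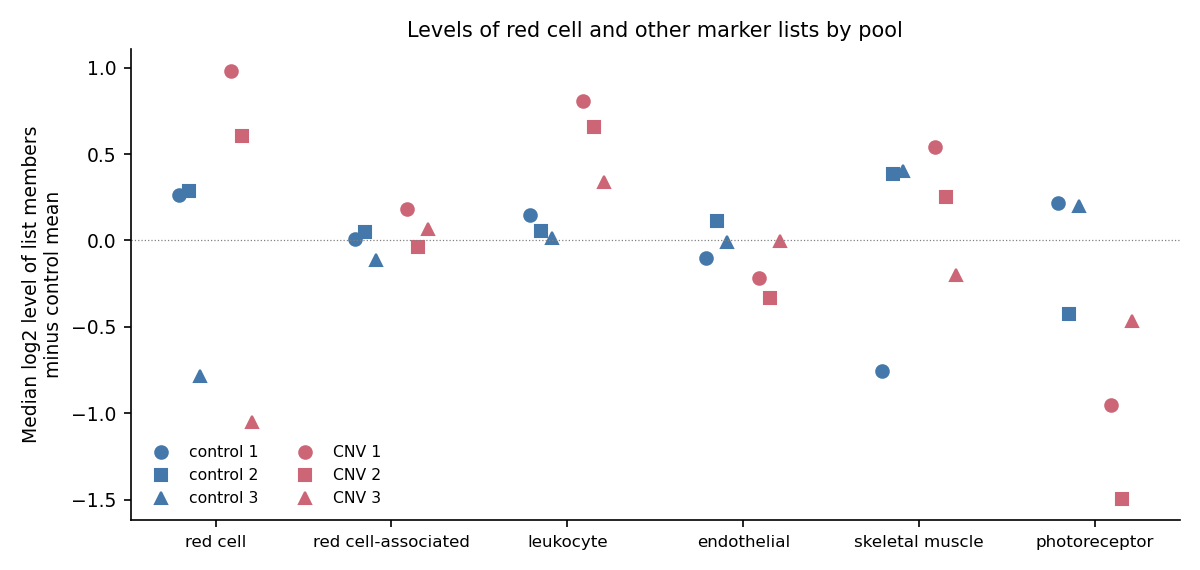
Median log2 level of the members of each list minus the control mean, by pool (control blue, CNV red, marker shapes for replicates). The red cell list (5 names, miR-486 under both) has replicate 3 of each group far below the others, the 12 red cell-associated miRNAs stay close to the control mean, and all 3 CNV pools of the leukocyte list lie above the control pools.

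Among all small RNAs with a mean of at least 10 CPM, 553 besides the members, the patterns most like miR-451a over the 6 libraries were those of tiRNA-Gly-GCC-003 (Pearson r 0.97), let-7d-3p (0.96), miR-92b-3p (0.95), miR-345-5p (0.94) and miR-326-3p (0.93). These r values are descriptions over 6 points that share their libraries, and 9 of the 553 reached 0.9. The tRNA fragment tiRNA-Gly-GCC-003, named as a fragment of a glycine tRNA, was at 1012, 1006 and 741 CPM in the control pools, against 1233, 1420 and 647 CPM in the CNV pools. Replicate 3 was thus the lowest pool of each group, as for miR-451a. The level of miR-92b-3p was 80.6, 64.1 and 55.5 CPM in control, with 91.4, 77.2 and 44.2 CPM in CNV. The range of let-7d-3p, the second arm of a let-7 precursor, was narrow at 273 to 342 CPM.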

How the data were processed

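Small RNAs of 6 pools, 3 control and 3 CNV, had been sequenced on a NextSeq 500 after Trizol extraction, per the labels' protocols. The authors deposited 1 table per library with a read count for every mature miRNA and tRNA-derived fragment (tsRNA). They aligned reads with Bowtie, per the submitters' processing notes; version, genome build, mismatches and treatment of shared reads are not given in these sources. The deposited CPM column uses different totals for miRNAs and tsRNAs and was left out.

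Counts of both classes were filtered with filterByExpr (minimum count 10, minimum total 15), which left 997 of 2334, scaled with TMM factors and tested with the quasi-likelihood test of edgeR 4.0.16 in R 4.3.3, with no covariate and Benjamini-Hochberg adjustment over all 997 (threshold 0.05). The fit was tested on simulated data. Levels are CPM of the TMM-scaled total; log2 levels used a prior count of 2. Ratios used counts plus 0.5 and two-sided exact permutation tests. Alternatives were DESeq2 1.42.0, limma-voom 3.58.1, other scalings and filters, miRNAs only, a replicate block and leaving out each library. Sequences and gene positions are from RefSeq and GENCODE M21 (GRCm38), matched by name.

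The members and the marker lists were chosen with earlier results of these data known. The miRNAs named are the members, other products of their precursors, the references of the ratios and the 5 small RNAs most like miR-451a. Some list members that bear on a count are named too, but not always those with the smallest p-values of a list. Others were named by choice after their values were seen. They are miR-16-5p, miR-92a-3p, miR-25-3p, miR-106b-5p, miR-93-5p, miR-363-3p, miR-101a-3p, miR-126a-5p, miR-142a-5p, miR-142a-3p, the muscle miRNAs and the RPE miRNAs.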

Additional observations from a re-analysis of the deposited data

How the results depend on the processing

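The number of red cell miRNAs called was 0 in all alternatives except that without a filter on low counts, where it was 1 (miR-451a); leaving out each library in turn gave 0 to 0. Over all small RNAs the calls numbered 3, against 38 with DESeq2, 88 without a filter, 6 with miRNAs only, 2 with RLE factors, 0 with a minimum mean of 20 CPM and 0 to 24 when each library was left out. The cause of these differences was not tested. When libraries were scaled by total counts alone, the median log2 fold change of all small RNAs was -0.11 instead of 0.05, and miR-451a was at 0.55. The fold change of miR-451a was positive in each of its 15 alternatives, with 0.31 to 1.15 over left-out libraries and an adjusted p of 0.0242 to 0.914 over all of them. That of miR-144-3p ran from -0.15 to 0.67 over left-out libraries and was -0.065 with limma-voom. That of miR-144-5p ran from -0.13 to 0.79, and those of miR-486a-5p and miR-486b-5p from -0.012 to 0.49. Over left-out libraries the log2 ratios of miR-451a differed by -0.019 to 1.33 (to miR-23a-3p), 0.35 to 0.58 (to miR-144-3p), -0.13 to 0.76 (to miR-486a-5p), -0.66 to 0.61 (to miR-223-3p) and 0.0042 to 1.50 (to miR-126a-3p), and that of miR-144-3p to miR-144-5p by -0.47 to -0.10. An offset of 5 counts reversed no ratio, and total-count scaling reversed no correlation.

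The replicate numbers are shared by the groups, but no label says what they mark. The deviations of same-numbered libraries correlated at 0.29, 0.03 and 0.17, and not every library correlated best with its own number. With the replicate number as a block, edgeR called 0 of the members and 36 small RNAs in all; miR-451a was at a log2 fold change of 0.50 (adjusted p 0.343). Depth limited the miR-144 arms most, with 32 to 356 counts of miR-144-3p per library.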
